A study of Homo sapiens with 22 samples.

Results

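The genes of the YAP, TAZ and TEAD axis were followed through 11 neuroblastoma cell lines grown in hypoxia and in normoxia. The members were chosen by name as the transcriptional co-activators YAP1 and WWTR1 (which encodes TAZ), the TEAD1, TEAD2, TEAD3 and TEAD4 factors and the target genes CCN1, CCN2, AMOTL2 and ANKRD1. Every probeset that names only 1 of these genes was used, which gave 21 of the 54675 probesets of the array and 10 of the 19775 genes they name. Values are given at the brightest probeset of each gene, the one with the highest mean log2 signal, unless another is named. Levels are compared between cell lines within a probeset and never between genes.

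The study asked how low oxygen changes transcription in neuroblastoma, a childhood tumor of the sympathetic nervous system. Established neuroblastoma cell lines were kept for 18 hours in hypoxia (1% O2) or normoxia (20% O2), and total RNA of each culture was read on 1 Affymetrix expression array. There were 11 arrays in each condition, 22 in all. The lines were GI-LI-N, ACN, SK-N-BE2(C), IMR-32, SK-N-F1, LAN-1, SK-N-SH, GI-ME-N, SHEP-2 and SHEP21N, the last of these counted as a pair of lines because it was sampled over-expressing MYCN and not over-expressing MYCN. No gene deletion or drug treatment is given for the lines, and the only genetic state given is MYCN over-expression in SHEP21N. What all the lines have in common is their tumor type and the culture conditions, and some are also related. Each line is 1 established culture in a dish without stroma or vessels, and no line had replicate arrays within a condition. The 3 SHEP lines are related to each other, and as background they derive from SK-N-SH.

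YAP and TAZ are co-activators without a DNA-binding domain of their own, and they act in the nucleus on TEAD proteins that bind DNA. The Hippo kinases STK3 and STK4 activate LATS1 and LATS2, which phosphorylate YAP and TAZ and keep them in the cytoplasm, where they are bound or degraded. In neuroblastoma the axis is best known from cells of mesenchymal or adherent character. Because the control is largely at the protein level, mRNA levels say how much transcript of each part was present and not how much YAP or TAZ was nuclear.

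Several arrays stood apart. On the normoxic array labelled SHEP21N over-expressing MYCN the 3'/5' signal ratio was 67.3 for GAPDH and 94.0 for ACTB, while the highest values on the other 21 arrays were 1.40 and 5.05. MYCN probeset 209756_s_at read 13.7 on that array, below the 28.7 of SHEP21N not over-expressing MYCN in normoxia, and 830.2 against 25.3 in hypoxia. The ACTB ratio of 5.05 was that of SHEP21N not over-expressing MYCN in normoxia. The hypoxic SHEP21N arrays had 2.70 and 2.85, and no array of another line exceeded 2.54. All SHEP21N arrays had a lowest signal of 3.3, against 0.0921 to 0.803 on the others. Its part in genes highest in the SHEP21N pair, such as AMOTL2 and TEAD4, was not tested. The arrays of SK-N-SH, GI-LI-N and IMR-32 resembled each other, with correlations of 0.900 to 0.906 between log2 signals in normoxia, against 0.703 to 0.873 for the 49 pairs of lines that were neither of these nor of the SHEP family. The arrays labelled SK-N-SH also had MYCN signals of 33504 and 35223 at the brightest MYCN probeset, 209757_s_at, where no SHEP array exceeded 55.3. Whether these arrays hold what their labels say was not tested. For the changes in hypoxia and the likeness of patterns, values without SHEP21N over-expressing MYCN or with the related lines merged are given beside the result.

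YAP1, at chr11:102110447-102233424 (GRCh38.p14, as are the positions that follow), was high in 5 of the 11 cell lines. Its signals in hypoxia ran from 36.5 through a median of 248 to 4167, and in normoxia from 47.8 through 236 to 4473. In GI-ME-N the signals were 3024 in hypoxia and 2482 in normoxia, and in SHEP-2 they were 4167 and 3765. SHEP21N over-expressing MYCN had 2091 and 4473, SHEP21N not over-expressing MYCN 2658 and 2870, and ACN 2202 and 2548. None of the other 6 lines came near these values. LAN-1 was the next with 248 and 236, followed by SK-N-F1 with 203 and 125 and SK-N-SH with 79.4 and 127. GI-LI-N had 77.1 and 74.3, IMR-32 36.5 and 88.6, and SK-N-BE2(C) 61.8 and 47.8. After division by the array median, the widest step in this order fell between ACN and LAN-1 and was 4.91-fold, and the arrays on either side of it did not overlap in either condition. Over the array median, GI-ME-N had 36.5 and 35.2, above both arrays of SHEP-2 (33.3 and 28.2) and of SHEP21N not over-expressing MYCN (28.1 and 31.1). It overlapped with SHEP21N over-expressing MYCN alone (22.7 and 41.7), whose spread includes the array with the high 3'/5' ratios. At probeset 224895_at SHEP-2, with 27.4 and 23.4, lay above GI-ME-N, with 14.3 and 17.3. At 213342_at these lines overlapped, with 9.76 and 10.1 against 7.90 and 10.6. The order within the 5 high lines thus depended on the probeset.

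WWTR1, at chr3:149517235-149724788, encodes the paralog TAZ and stood high in the same 5 lines. Its signals were 7793 in hypoxia and 6159 in normoxia in ACN, 4862 and 5683 in GI-ME-N, and 4734 and 6432 in SHEP21N not over-expressing MYCN. SHEP21N over-expressing MYCN had 3537 and 3040, and SHEP-2 had 2290 and 2268. SK-N-F1 reached only 242 and 172 and LAN-1 152 and 164, while in the remaining 4 lines the signals were between 6.35 and 64.0, below the array median throughout. The widest step, 6.11-fold, lay between SHEP-2 and SK-N-F1. The order within the high lines was not that of YAP1: SHEP-2, one of the highest for YAP1, was the lowest of these 5 for WWTR1, and apart from the line above it.

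**Figure D1:**
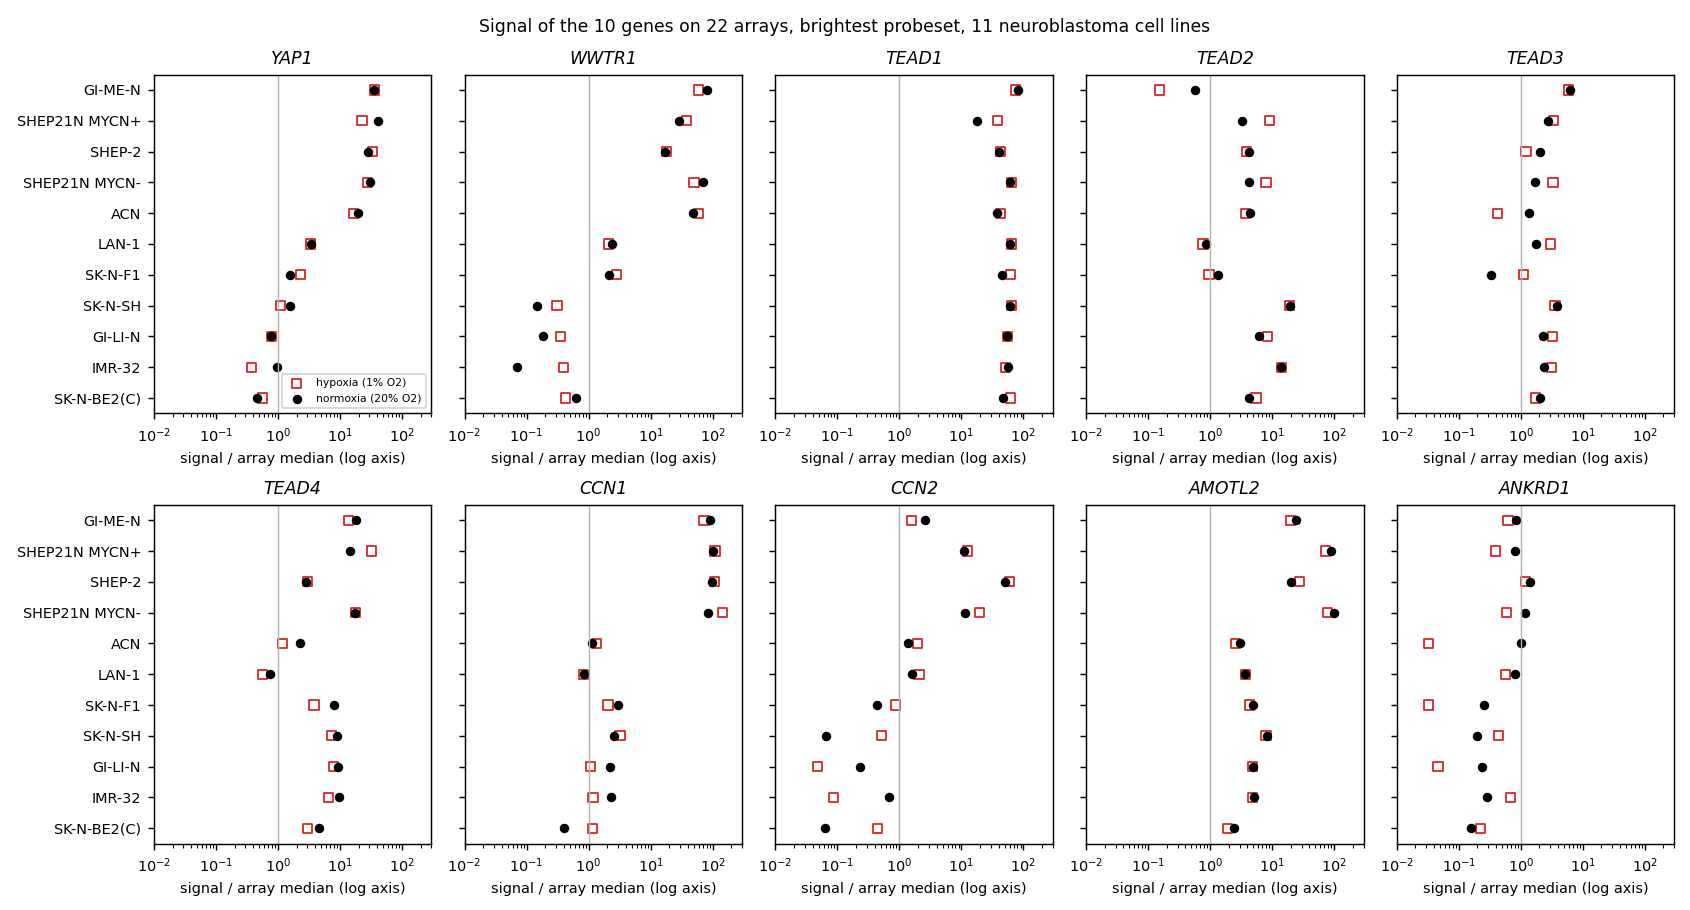
Signal over the array median (log axis) of the 10 genes at their brightest probeset, with 1 row for each cell line in the order of its YAP1 level. Open squares are hypoxia, filled circles normoxia, 1 array each, and MYCN+ and MYCN- mark SHEP21N over-expressing and not over-expressing MYCN. YAP1 and WWTR1 are high in the 5 upper rows, CCN1 in 4 of these and CCN2 in the 3 SHEP rows, whereas TEAD1 is nearly level.

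The TEAD factors, through which YAP and TAZ reach DNA, were not divided along the same line. TEAD1, at chr11:12674421-12944737, gave signals from 1927 to 6794 on all 22 arrays, with medians of 5382 in hypoxia and 4915 in normoxia. Its highest line was GI-ME-N with 6259 and 5705, and the lines with little YAP1 carried nearly as much, for example SK-N-BE2(C) with 6794 and 4796. Its lowest line was SHEP21N over-expressing MYCN, with 3558 in hypoxia and 1927 on the normoxic array with the high 3'/5' ratios. The widest step in the TEAD1 order was only 1.16-fold.

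TEAD2, at chr19:49340595-49362416, was highest in lines with little YAP1. The top line was SK-N-SH, with 1368 in hypoxia and 1534 in normoxia, followed by IMR-32, with 1388 and 1274. Its lowest levels were in GI-ME-N, with 12.6 and 40.6, in LAN-1, with 56.5 and 60.6, and in SK-N-F1, with 83.4 and 106. These 3 lines lay under a step of 2.48-fold, and they include both a line with much YAP1 and lines with little.

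TEAD3, at chr6:35473597-35497079, had hypoxic signals from 55.0 through 257 to 482 and normoxic ones from 26.5 through 218 to 443. GI-ME-N was the highest line with 482 and 443, and 8 of the 10 neighbouring pairs in its order overlapped. TEAD4, at chr12:2959397-3040676, was highest in SHEP21N over-expressing MYCN, with 2971 and 1539, in SHEP21N not over-expressing MYCN, with 1687 and 1606, and in GI-ME-N, with 1132 and 1264. It was lowest in LAN-1, with 41.2 and 51.1, and ACN, high for YAP1, had only 154 and 289.

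The targets were high in fewer lines than the co-activators. CCN1, at chr1:85580761-85583950, encodes the matricellular protein CYR61. It gave signals between 6033 and 13638 in the 3 SHEP lines and GI-ME-N, and no more than 237 elsewhere. ACN, in spite of its YAP1 and WWTR1 signals, had CCN1 signals of 175 in hypoxia and 145 in normoxia, in 9th place of 11. The widest step for CCN1 was 22.7-fold, the largest of the 10 genes.

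CCN2, at chr6:131948176-131951372, encodes connective tissue growth factor and separated the SHEP lines from all others. SHEP-2 had 7395 and 6842, SHEP21N not over-expressing MYCN 1843 and 1048, and SHEP21N over-expressing MYCN 1176 and 1174. GI-ME-N, with 131 and 185, and ACN, with 257 and 176, both overlapped with LAN-1, 153 and 109, once each array was divided by its median. The 4 lowest lines had signals of 4.76 to 63.8.

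AMOTL2, at chr3:134355345-134375417, encodes a junction protein that binds YAP and is itself a target. It was highest in SHEP21N not over-expressing MYCN, with 7349 and 9185, and in SHEP21N over-expressing MYCN, with 6650 and 9633. SHEP-2 followed with 3501 and 2657 and GI-ME-N with 1623 and 1700, while the other 7 lines lay between 214 and 656. ACN was again low, with 334 and 386. For ANKRD1, at chr10:90912096-90921087, which encodes a nuclear ankyrin-repeat protein, the signals were below the array median on 18 of 22 arrays. Its highest line was SHEP-2 with 150 and 190, and 9 of the 10 neighbouring pairs in its order overlapped.

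**Figure D2:**
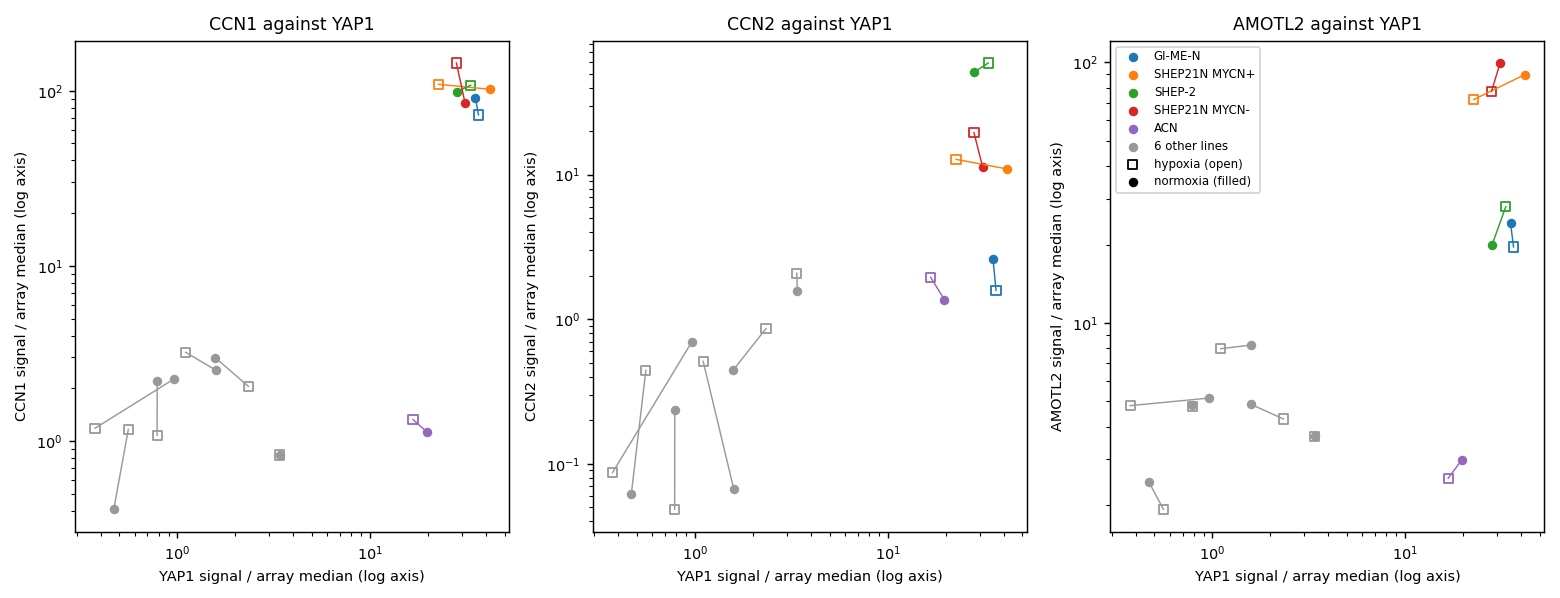
Signal over the array median of CCN1, CCN2 and AMOTL2 (log axis) against that of YAP1 (log axis) for 22 arrays. A segment joins the hypoxic (open square) and normoxic (filled circle) array of a line, and the 5 lines with the highest YAP1 level are coloured. ACN lies far to the right yet among the grey lines in height, and GI-ME-N is high for CCN1 and AMOTL2 but not for CCN2.

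The promoters of the targets are shown because TEAD proteins bind DNA at a short motif, searched here as GGAATG or its reverse complement CATTCC in the 250 bases before each transcription start. The reference held starts for 7 of the 10 genes, in 10 windows (RefSeq, GRCh38.p14), and 4 of these windows had a match. It held none for CCN1, TEAD1 and TEAD4, whose promoters were therefore not searched. Of all 35116 windows of this length, 11.9% had at least 1 match, 0.940% at least 2 and 0.0826% at least 3. CCN2 had 3 matches, at -169, -104 and -95 from the start, ANKRD1 had 2, at -220 and -128, and YAP1 had 1 at -162. AMOTL2 had 1 at -69 from the downstream of its 2 starts and none at the upstream start. The matches are letters in a window and say nothing of binding in these cells. The stretches below are written in the direction of the gene with the matches in capitals: CCN2 at chr6:131951442-131951561 (minus strand), ANKRD1 at chr10:90921190-90921327 (minus strand), AMOTL2 at chr3:134374491-134374536 (minus strand) and YAP1 at chr11:102110265-102110310 (plus strand).
CCN2: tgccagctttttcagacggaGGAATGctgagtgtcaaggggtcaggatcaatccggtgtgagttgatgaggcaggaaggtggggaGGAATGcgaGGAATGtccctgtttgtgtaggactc
ANKRD1: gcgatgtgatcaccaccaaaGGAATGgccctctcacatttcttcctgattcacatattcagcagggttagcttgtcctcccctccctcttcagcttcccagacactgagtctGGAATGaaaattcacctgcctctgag
AMOTL2: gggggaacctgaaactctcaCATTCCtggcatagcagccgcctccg
YAP1: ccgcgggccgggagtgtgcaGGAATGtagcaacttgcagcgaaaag

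Among the genes searched, which leave out CCN1, the windows with the most matches belonged to CCN2 and ANKRD1. CCN2 was high in 3 lines, and ANKRD1 was low in nearly all. No matching letters were in the windows of WWTR1, TEAD2 and TEAD3.

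The differences between cell lines were tested for all probesets with limma, with the condition as a covariate and the spread between the 2 arrays of a line as error. Of all probesets 52.4% differed between lines at an adjusted p below 0.05, and of those with a mean signal of at least 100 it was 81.2%. Of the 21 member probesets 17 did. By signal, these were 17 of the 18 with a mean signal of at least 100 and 0 of the 3 below it. At the brightest probesets 9 of 10 genes differed. AMOTL2 had the largest F, 102 (limma adjusted p = 1.97e-07), followed by YAP1 with 75.3 (limma adjusted p = 5.83e-07), CCN1 with 72.9 and WWTR1 with 64.6. ANKRD1 did not pass (limma adjusted p = 0.151). TEAD1 passed narrowly (limma adjusted p = 0.0374), and its call was lost without SHEP21N over-expressing MYCN (0.0828), with the values as deposited (0.0806) and after quantile normalization (0.0885).

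How alike the patterns were is described by Pearson's r over the 11 line means of log2 signal. The points share arrays and scaling, and the lines fall into sets, so that r mostly reports which lines are high. YAP1 and WWTR1 had an r of 0.957, and YAP1 had 0.885 with CCN2, 0.817 with CCN1 and 0.727 with AMOTL2. CCN1 and AMOTL2 were at 0.945. By contrast YAP1 had -0.26 with TEAD1, -0.38 with TEAD2, 0.06 with TEAD3 and 0.18 with TEAD4. When SK-N-SH, GI-LI-N and IMR-32 were merged to their mean, and the SHEP lines likewise, 7 points were left and YAP1 had 0.963 with WWTR1, 0.857 with CCN2, 0.748 with CCN1 and 0.680 with AMOTL2. Its values with TEAD1, TEAD2, TEAD3 and TEAD4 were then -0.10, -0.40, 0.20 and 0.22.

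**Figure D3:**
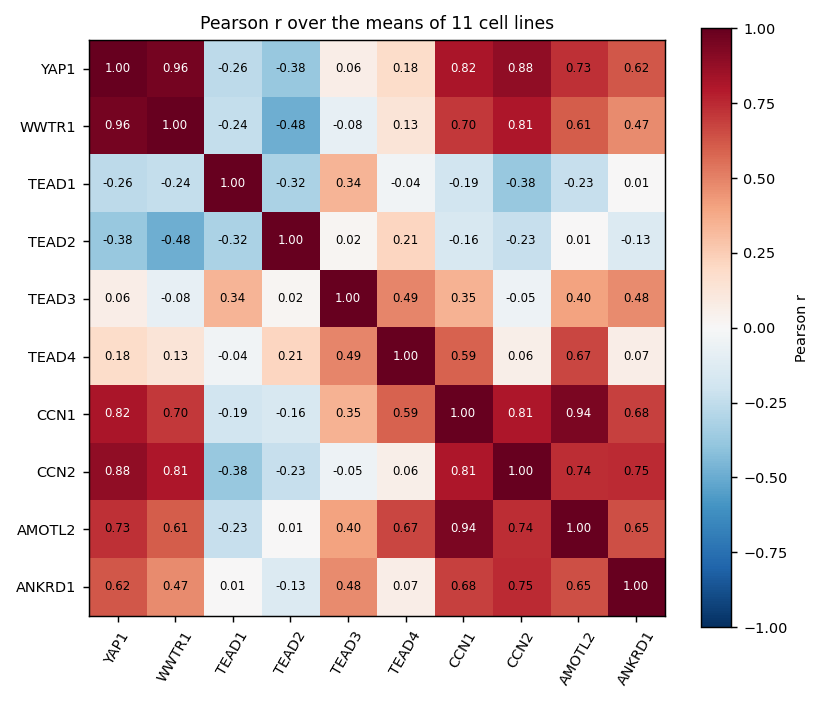
Pearson r between the 10 genes over the mean log2 levels of the 11 cell lines, at the brightest probesets. YAP1, WWTR1, CCN1, CCN2 and AMOTL2 have values from 0.61 to 0.96 with each other. The 4 TEAD genes have values near or below 0.2 with YAP1 and WWTR1, but TEAD4 has 0.67 with AMOTL2 and 0.59 with CCN1. ANKRD1 has 0.62 to 0.75 with YAP1, CCN1, CCN2 and AMOTL2 and 0.47 with WWTR1.

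Among the 12518 genes with a mean signal of at least 100, those most like YAP1 were GPX8 (r = 0.974), ELAVL1 (0.974), TGFBI (0.973), VCL (0.972) and IL13RA1 (0.970). GPX8 encodes a peroxidase of the endoplasmic reticulum, TGFBI an extracellular matrix protein and VCL the focal adhesion protein vinculin. WWTR1 was in 21st place in that order, while CCN2 was in place 163, CCN1 in place 409 and AMOTL2 in place 810. The genes most like WWTR1 were TACC1 (0.985), ORAI3 (0.978), CASP8 (0.972), CAVIN1 (0.972) and TGFBI (0.972), and YAP1 was in 11th place. For WWTR1 the target CCN2 was in place 416, CCN1 in place 845 and AMOTL2 in place 1366. CASP8 encodes the initiator caspase of death receptors and CAVIN1 a coat protein of caveolae.

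The lines high in YAP1 and WWTR1 were also those with the lowest summed markers of the noradrenergic neuroblast. The summed level of PHOX2A, HAND2, GATA3, ISL1, TH and DBH, each over the array median, was 390 to 560.2 in the 6 lines with little YAP1. It was 1.24 in ACN, where 6 of 6 markers were below the array median, and 16.1 in SHEP-2, where 4 were. In SHEP21N it was 28.6 with 4 markers below the median over-expressing MYCN, and 31.6 with 2 below not over-expressing it. In GI-ME-N it was 47.0, with 3 markers below the array median and 2 of 6 above their own mean over lines. At its brightest probeset, 209757_s_at, MYCN gave signals of 5788 to 67626 in the 6 lines with little YAP1 and at most 55.3 in the other 5. At 209756_s_at SHEP21N over-expressing MYCN read 830.2 in hypoxia. The 6 mesenchymal markers PRRX1, TWIST1, SNAI2, VIM, FN1 and CD44 summed to 418.5 to 1224 in the 5 lines and 229 to 438 in the 6, ranges that overlapped. Counted gene by gene, 4 to 6 of the 6 were above their own mean over lines in the 5 lines. In the other 6 lines 1 to 2 were. Levels of single markers also crossed between the groups. The mean log2 level of PRRX1 was 1.26 in LAN-1 and 0.92 in ACN. That of SNAI2 was 4.02 in SK-N-F1 and 3.91 in SHEP-2. FN1 had 4.85 in LAN-1 against 4.62 and 4.28 in the SHEP21N pair. VIM had 8.24 in SK-N-SH against 7.89 in SHEP21N over-expressing MYCN. Only CD44 did not cross, with at least 6.19 in the 5 lines and at most 6.06 in the other 6. TWIST1 largely ran the other way. Its log2 level minus its mean over lines was lowest in ACN (-2.04) and SHEP-2 (-1.17). It was highest in SK-N-SH (1.27) and SK-N-BE2(C) (1.26), with GI-ME-N at 0.36. The blood, endothelial and epithelial markers PTPRC, PECAM1, EPCAM and CDH1 together summed to 2.04 to 4.99 times the array median in every line. These groups of lines were seen in the data and are not given by the labels, so no test was made between them, and the part of these markers in the levels of the axis was not tested. In bulk RNA, fewer cells of a type and less RNA per cell cannot be told apart.

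Hypoxia left no member past the test. Over all probesets limma, with the cell line as a block, called 26 at an adjusted p below 0.05, or 0.0476% (0.0457% higher and 0.00183% lower), and 0 of the 21 member probesets were among them. At an unadjusted p below 0.05, 0 members were higher and 2 were lower, against 3.35% and 4.74% of all probesets, 8.09% together. The paired t-test over the lines also called 0 of the 21, adjusted or unadjusted. The median log2 change of the 21 probesets was 0.02, against -0.02 for all probesets.

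For the co-activators the change had a different sign in different lines, and no change was called. YAP1 had a fitted change of -0.19 on the log2 scale (SE 0.18, n = 11 lines, 95% interval -0.57 to 0.20, limma adjusted p = 0.811), with 4 of 11 lines higher in hypoxia. WWTR1 changed by 0.37 (SE 0.26, 95% interval -0.21 to 0.95, limma adjusted p = 0.742), with 7 of 11 lines higher. The hypoxic and normoxic signals of both genes overlapped widely. For YAP1 the interval held no 2-fold change in either direction. Without SHEP21N over-expressing MYCN the values were -0.12 for YAP1 and 0.36 for WWTR1, and without IMR-32 they were -0.07 and 0.15. With SK-N-SH, GI-LI-N and IMR-32 merged they were -0.09 and 0.11.

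Of the TEAD genes, TEAD1 changed by 0.20 (SE 0.13, 95% interval -0.09 to 0.49) and was higher in 8 of 11 lines. TEAD4 changed by -0.29 (SE 0.19, 95% interval -0.70 to 0.12) and was higher in only 3. TEAD2 and TEAD3 changed by 0.02 and 0.15, with intervals of -0.53 to 0.57 and -0.43 to 0.74. The smallest limma adjusted p of the 4 was 0.712, that of TEAD4. Without SHEP21N over-expressing MYCN, TEAD1 had 0.11, TEAD2 -0.12, TEAD3 0.14 and TEAD4 -0.44.

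Among the targets AMOTL2 was the most steady, with a log2 change of -0.13 (SE 0.11, 95% interval -0.38 to 0.12) and 2 of 11 lines higher. CCN1 changed by 0.02 (SE 0.22, 95% interval -0.46 to 0.50). CCN2 changed by 0.26 with a wide interval of -0.85 to 1.36, and its 4 lowest lines had signals of at most 63.8. ANKRD1 had the largest change at a brightest probeset, -0.96 (SE 0.52, 95% interval -2.10 to 0.17, limma adjusted p = 0.656), at signals that were mostly below the array median. It was -0.34 with signals floored at 50 and -0.57 without ACN. The value of CCN2 was 0.00058 without SK-N-BE2(C), -0.0094 without SK-N-SH and 0.58 without IMR-32, and 0.13 at the floor. Merging SK-N-SH, GI-LI-N and IMR-32 gave 0.49 for CCN2 and 0.15 for CCN1. For CCN2 and ANKRD1 a 2-fold change in at least 1 direction lay within the interval and was not detectable at this precision.

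**Figure D4:**
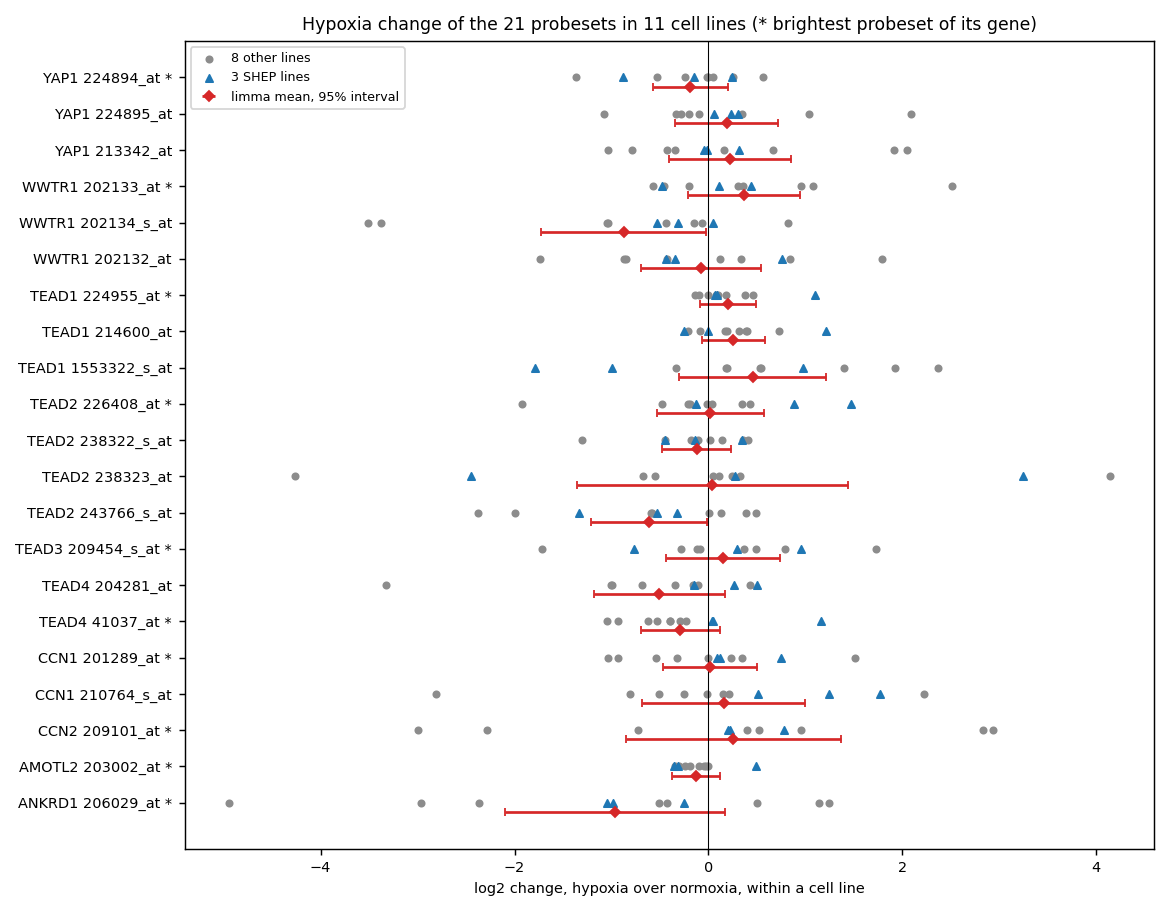
Log2 change of hypoxia over normoxia at the 21 member probesets, with 1 point for each of 11 cell lines (triangles for the 3 SHEP lines, circles for the 8 others). The diamond and bar under each row are the limma mean and its 95% interval, and an asterisk marks the brightest probeset of a gene. Of the 21 intervals 19 include 0, and the points scatter to both sides in nearly every row.

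Probesets of a gene did not always move alike. For YAP1 the other probesets, 224895_at and 213342_at, changed by 0.19 and 0.22, against -0.19 at the brightest. For WWTR1 probeset 202134_s_at changed by -0.87 (SE 0.39, limma p = 0.0451, adjusted p = 0.608), with 2 of 11 lines higher, and 202132_at by -0.07, against 0.37 at the brightest. TEAD2 had 0.02 at its brightest probeset, -0.12 at 238322_s_at and -0.61 at 243766_s_at (limma p = 0.0457, adjusted p = 0.609), the last with signals below the array median on 22 of 22 arrays. The direction of YAP1, WWTR1 and TEAD2 in hypoxia thus depended on the probeset.

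The change in hypoxia was also compared between the 3 SHEP lines and the 8 other lines as an interaction in limma. It called 0 probesets at an adjusted p below 0.05, and at an unadjusted p below 0.05 it called 9.94% of all probesets and 1 of the 21 members, TEAD4 probeset 41037_at. The SHEP lines came from another provider than the rest and are related, so provider and lineage cannot be told apart. CCN1 was higher in hypoxia in 3 of 3 SHEP lines and 3 of 8 others, with a difference in log2 change of 0.42 (95% interval -0.69 to 1.52). For YAP1 the difference was -0.10 (95% interval -1.01 to 0.80).

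The SHEP21N arrays labelled as over-expressing MYCN and as not over-expressing it were set side by side, with 1 array for each label and condition and therefore no test. In normoxia MYCN itself went against the label at 209756_s_at (13.7 against 28.7), so the normoxic differences are those of the labelled arrays only. At the brightest MYCN probeset, 209757_s_at, the hypoxic arrays went against the label (6 against 12.7). The normoxic ones went with it (19 against 6), all at low signals. The log2 difference of WWTR1 between the labels was -0.38 in hypoxia and -1.30 in normoxia, and that of TEAD1 was -0.75 and -1.77. Other probesets went the opposite way, with 0.17 for WWTR1 202134_s_at in normoxia and 0.36 and 2.22 for TEAD1 214600_at and 1553322_s_at in hypoxia. YAP1 differed by -0.31 in hypoxia and 0.42 in normoxia, CCN1 by -0.40 and 0.26, and AMOTL2 by -0.11 and -0.15. The normoxic sign of YAP1 and CCN1 also depended on the probeset. In normoxia YAP1 had -0.16 at 224895_at and 0.03 at 213342_at. CCN1 had -0.92 in hypoxia and -1.44 in normoxia at 210764_s_at. The normoxic differences rest on the array with the high 3'/5' ratios, and its part in them was not tested.

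The Hippo pathway, together with the VGLL genes that act at TEAD, was read from a list of 28 genes, each at its brightest probeset. LATS2 and PTPN14 also stand in the list of YAP targets below, so the counts of both lists include them. Over all genes limma called 0.162% in hypoxia at an adjusted p below 0.05, and 0 of the 28 were among them. At an unadjusted p below 0.05, 2 were higher and 1 lower, against 3.60% and 7.07% of all genes. VGLL4, a competitor of YAP for TEAD, changed by 0.45 (SE 0.14, limma adjusted p = 0.28), and the atypical cadherin FAT4 by 0.38. MOB1A, the adaptor of the LATS kinases, changed by -0.37 (SE 0.09, limma adjusted p = 0.196), and SAV1, the scaffold of the upstream kinases, by 0.32. The median change of the list was -0.02, against -0.04 for all genes.

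Between cell lines 24 of the 28 differed, against 64.2% of all genes. Of the 28, 23 had a mean signal of at least 100, and of all probesets at that signal 81.2% differed. PTPN14, a phosphatase that binds YAP, was high in the same lines as YAP1, with signals of 2529 to 5979 in the SHEP lines and GI-ME-N and 886 and 899.7 in ACN, against at most 194 in the rest. LATS2 had its highest level in ACN, with 3633 and 2544, and 13.7 and 15.2 in SK-N-BE2(C). AJUBA, an inhibitor of the LATS kinases, was high in the SHEP lines and GI-ME-N, from 3515 to 7486, and like CCN1 was low in ACN, with 164 and 251. DCHS1, a cadherin that binds FAT4, had the opposite distribution, with 1519.6 to 2807 in GI-LI-N, IMR-32, SK-N-BE2(C) and SK-N-SH and at most 140.0 in the 5 lines high in YAP1. PTPN14, LATS2, AJUBA and DCHS1 were picked here after their values were seen.

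A second list held 18 genes known as YAP targets other than the members, of which 17 were measured and NUAK2 was not analysed here. In limma 0 of the 17 were called in hypoxia, against 0.162% of all genes. At an unadjusted p below 0.05, 1 was higher and 0 were lower, against 3.60% and 7.07% of all genes. The higher one was IGFBP3, which encodes a binding protein of insulin-like growth factors and is known to respond to low oxygen as well. The study lists IGFBP3 in its own hypoxia signature, chosen from these lines by another selection with a 2-fold limit. In the fit used here IGFBP3 changed by 0.91 (SE 0.22, limma p = 0.00158, adjusted p = 0.187) and was higher in 10 of 11 lines. CRIM1 followed with -0.70, TGFB2 with -0.38 and AXL with -0.48, and the smallest limma adjusted p of these 3 was 0.477. The median change of the list was -0.05.

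Between cell lines 17 of the 17 targets differed, against 64.2% of all genes. Of the 17, 16 had a mean signal of at least 100, and of all probesets at that signal 81.2% differed. MYOF, a membrane repair protein, had 4830 to 14397 in the SHEP lines and GI-ME-N, 2782 and 2856 in ACN and at most 50.9 in the other 6 lines. The receptor kinase AXL had 8373 to 11848 in GI-ME-N and the SHEP21N pair, 499 and 1085 in SHEP-2 and only 30.3 and 152 in ACN. Others of the list, such as ASAP1 and GADD45A, showed little of this division. RBMS3, an RNA-binding protein, ran the other way: its log2 level minus the mean over lines was -3.19 to -0.51 in the 5 lines with most YAP1 and 0.27 to 1.90 in the other 6. ACN was above the mean over lines for 7 of the 17 genes, GI-ME-N for 12 and the SHEP lines for 11 to 13. MYOF, ASAP1, GADD45A and RBMS3 too were picked after their values were seen.

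**Figure D5:**
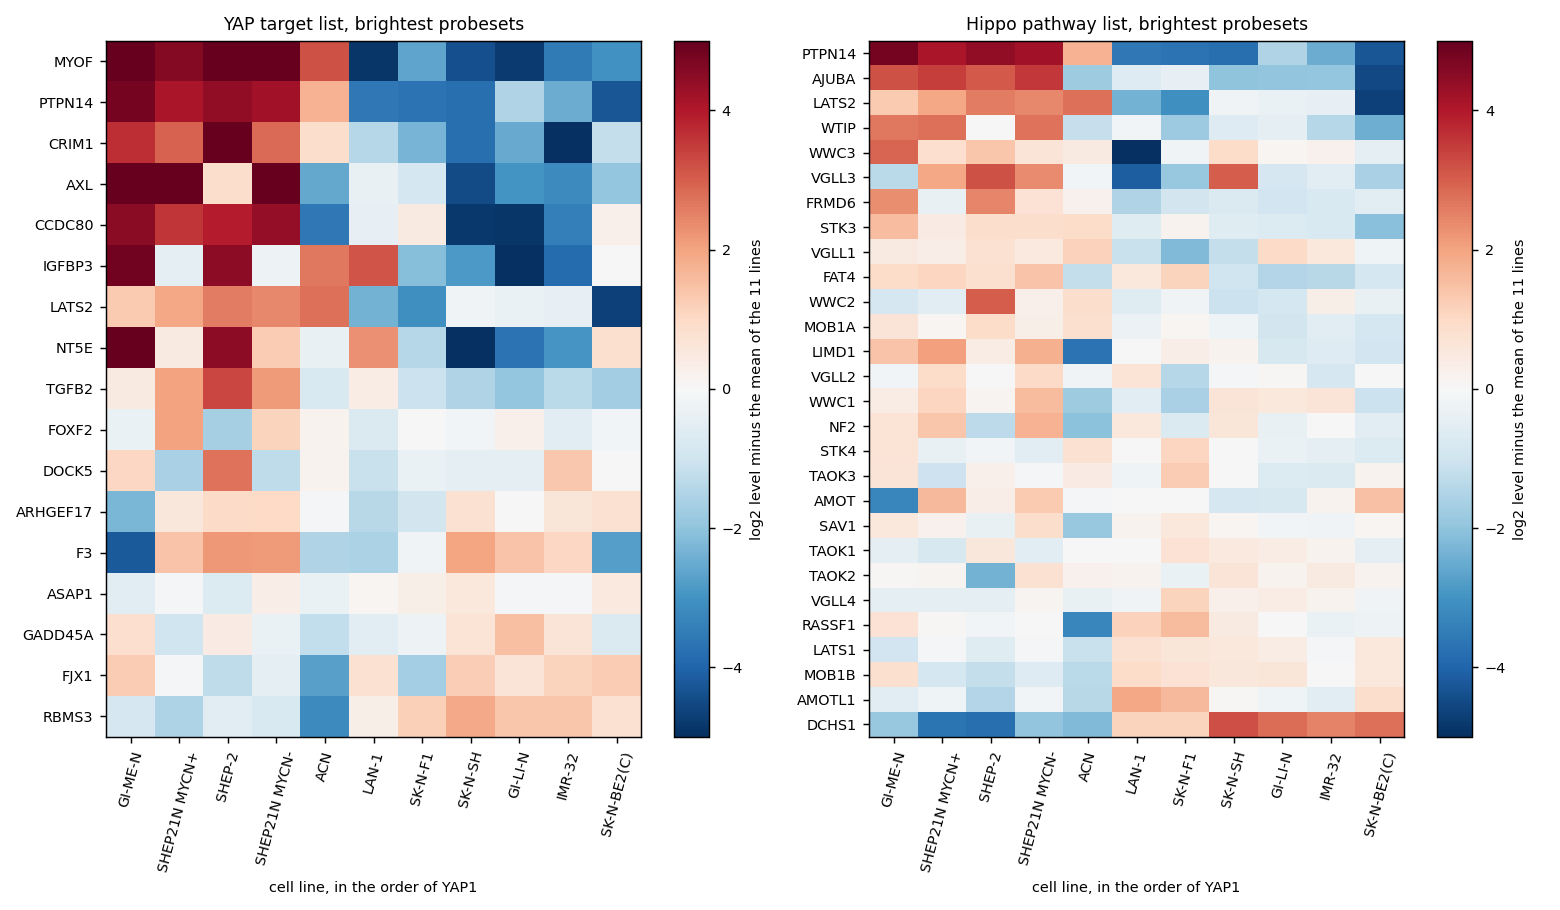
Level of each gene of the YAP target list (left) and the Hippo pathway list (right) in each cell line, as log2 signal over the array median minus the mean of the 11 lines. Lines run from the highest YAP1 level to the lowest, genes are ordered by their mean over the 5 lines with most YAP1, and colours are limited to 5 in either direction. Red cells at the upper left of each panel are the genes high in the SHEP lines and GI-ME-N.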

How the data were processed

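The deposited intensity values are probeset signals on a linear scale that the authors made with the algorithm of Microarray Suite 5.0 (MAS5) and scaled per array. The trimmed mean of every array was 500.01 to 500.07. Signals were set relative to the median of their array on the log2 scale. Of 54675 probesets, 41091 name 1 gene, 1801 several and 11783 none. Genes were represented by their brightest probeset. Fits used limma 3.58.1 in R 4.3.3 with Benjamini-Hochberg adjustment over all probesets or genes, without a filter, and were tested on simulated data. Tables were handled in Python 3.11.15 with pandas 2.3.3 and numpy 2.4.6. The cell line was a block, since the labels give the same line in both conditions. The number of arrays limits the precision. In the hypoxia fits p-values measure the spread of the change between lines. In the test of differences between lines they measure the spread between the 2 arrays of a line. Lines were counted as independent although some are related.

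Named were the 10 members, their probesets that disagree in sign, the 4 genes of each list with the smallest p, the 5 genes most like YAP1 and WWTR1, and MYCN. PTPN14, LATS2, AJUBA, DCHS1, MYOF, ASAP1, GADD45A and RBMS3 fall outside this rule and were named after their values were seen. The members and lists were chosen with earlier results of these data known. Alternatives were quantile normalization, values as deposited, signals floored at 50, a filter at a mean signal of 100, no block, a paired t-test, a 2-fold limit, the mean of a gene's probesets, averaged or left-out related lines, and each line left out. Other settings for the likeness and the order of levels were chosen after seeing the data. The tumor profiles of the study were not analysed here.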

Additional observations from a re-analysis of the deposited data

Results flagged for a closer look

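At TEAD4 every SHEP line was higher in hypoxia and every other line lower, although 2 of the 3 SHEP changes were close to 0. At probeset 41037_at the log2 change was 0.05 in SHEP-2, 0.03 in SHEP21N not over-expressing MYCN and 1.17 in SHEP21N over-expressing MYCN, and it was negative in 8 of 8 other lines, from -1.05 to -0.23. The difference in log2 change was 0.97 (SE 0.32, 95% interval 0.27 to 1.67, limma p = 0.011), but the limma adjusted p was 0.411, so it did not pass over all probesets. Leaving out SHEP21N over-expressing MYCN, whose normoxic array had the high 3'/5' ratios, gave 0.60. At the other probeset, 204281_at, 2 of 3 SHEP lines and 1 of 8 others were higher in hypoxia (difference 0.98, limma p = 0.165).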

How the results depend on the processing

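No member was called in hypoxia or in the SHEP interaction under any alternative run, and 16 to 19 of 21 member probesets differed between cell lines. Over all probesets hypoxia called 26, with 94 at a floor of 50, 95 with a mean signal of at least 100, 59 by the paired t-test, 12 without both SHEP21N lines, 9 with the SHEP lines averaged and 0 with SK-N-SH, GI-LI-N and IMR-32 averaged. Without the replicate block, the pairing given by the labels, it was 9. Leaving out 1 line gave 8 to 24, with 8 without SHEP-2 or GI-LI-N, 12 without SK-N-SH, 9 without SK-N-F1, 17 without LAN-1 and 16 without IMR-32 or ACN. Genes called fell from 32 to 14 with the mean of all probesets. The interaction called 0, with 32 at a floor of 50, 11 without SHEP21N over-expressing MYCN and 0 to 103 with 1 line left out, the most without SHEP-2, then 25 without SHEP21N not over-expressing MYCN and 7 without ACN.

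The changes that turned sign were all uncalled. TEAD2 was -0.0019 with quantile normalization, -0.14 with the SHEP lines averaged, -0.0075 with SK-N-SH, GI-LI-N and IMR-32 averaged, -0.24 without SHEP21N and, with 1 line left out, -0.12 to 0.21 (-0.020 without GI-LI-N, -0.012 without SK-N-BE2(C), -0.065 without SHEP21N not over-expressing MYCN and -0.12 without its over-expressing state). CCN1 was -0.0042 at a floor of 50, -0.047 with the SHEP lines averaged, -0.070 without SHEP21N and -0.13 to 0.13 with 1 line left out (-0.13 without SK-N-BE2(C), -0.053 without SHEP21N not over-expressing MYCN, -0.012 without SK-N-SH and -0.0016 without ACN). WWTR1 was -0.035 at a floor of 50. With 1 line left out, TEAD3 reached -0.0068 without SK-N-F1 and CCN2 -0.0094 without SK-N-SH. With the mean of all probesets YAP1 was 0.075, WWTR1 -0.19 and TEAD2 -0.17. The causes were not tested. The lines above the widest step were the same for 8 of 10 genes with the values as deposited or quantile normalization (TEAD1 and AMOTL2 changed) and for 10 of 10 at the floor. These alternatives of the order and of the likeness were chosen after seeing the data. Signals near the lower end, those of ANKRD1 and of CCN2 in 4 lines, limit what could be seen.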
